A study of Mus musculus with 12 samples.

Results

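The genes described here make the enzymes of oxidative phosphorylation (OXPHOS), the last stage of respiration. They were chosen by a rule on symbol and annotation, with earlier results of these data known. A gene belonged to the set if it was annotated as protein-coding and its symbol began with Ndufa, Ndufb, Ndufc, Ndufs, Ndufv, Uqcr, Cox4 to Cox8, Atp5 or the mitochondrial prefix mt-, or was Sdha, Sdhb, Sdhc or Sdhd. The rule found 107 of the 54532 genes in the count table, which holds 22046 protein-coding genes, with 94 of the 107 in the nucleus and 13 on the mitochondrial chromosome. Among the nuclear entries, 76 were subunits, 8 were tissue isoforms of complex IV subunits and 8 were complex I assembly factors (Ndufaf1 to Ndufaf8). The last 2 were Atp5s, a relative of ATP synthase coupling factors, and Cox7a2l, which helps join complexes III and IV into supercomplexes. One of the 76 subunit entries was a second row for Atp5o that held 0 counts in every library, and the rule missed some true subunits and regulators, such as Cyc1, Usmg5 and Atpif1, because of their names.

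Oxidative phosphorylation takes place at the inner mitochondrial membrane. Complex I takes electrons from NADH and complex II takes them from succinate, complex III passes them to cytochrome c, complex IV hands them to oxygen, and complex V (ATP synthase) uses the proton gradient that results to make ATP. Complexes I, III, IV and V are built from proteins of both genomes, while all of complex II is encoded in the nucleus. Several complex IV subunits exist as a ubiquitous isoform and a second isoform known from heart and muscle, lung or testis.

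The libraries came from testes of newborn mice of the strain Tg(Pou5f1-EGFP)2Mnn, in which regulatory sequence of Pou5f1 drives EGFP in germ cells, and all 4 groups carried this transgene. Pregnant dams were given the synthetic glucocorticoid dexamethasone (dex, 10 µg per g of body weight) or saline at E17.5 and E18.5, the pups were given the same agent on postnatal day 0, and testes were taken on postnatal day 1. Cells were sorted by flow cytometry into EGFP-positive germ cells and EGFP-negative somatic cells, and polyadenylated RNA was sequenced in 3 libraries each of saline germ, dex germ, saline somatic and dex somatic cells. By the study's methods each replicate pooled the testes of at least 2 litters, so the spread is one between pools. The libraries held 18459692 to 25178477 counts in genes. The labels fitted the markers, since the summed level of 14 germ cell markers was 3893 to 4097 CPM (counts scaled to the depth of the library) in the germ libraries and 21.8 to 28.1 CPM in the somatic ones. The sum of 10 Sertoli cell markers was 338 to 460 CPM in germ and 4348 to 5176 CPM in somatic libraries. In saline libraries 9 of these 10 were lower in germ cells and 1 was higher. Their log2 fold changes had a median of -5.84 and a highest value of 1.57, so the germ sum includes a marker that goes the other way. The somatic fraction is a mixture of Sertoli, Leydig, peritubular, vascular and blood cells, and in such bulk libraries fewer cells of a type and less RNA per cell cannot be told apart. CPM values below are scaled by the trimmed mean of M values (TMM), FPKM values (which divide by gene length) are those the authors deposited, errors are SD with n = 3 unless a standard error (SE) is named, and a gene was called when its adjusted p from edgeR's quasi-likelihood test was at or under 0.05.

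The mitochondrially encoded genes took a larger share of the library in saline germ cells than in saline somatic cells, and in dex germ cells the share was spread over both ranges. Their share was 2.75%, 2.47% and 1.79% of counts in the 3 saline germ libraries, with a mean of 2.33 ± 0.493%. It was 2.64%, 1.45% and 1.54% in the dex germ libraries, where the mean was 1.88 ± 0.660%. One dex germ library thus sat among the saline germ libraries and the other two sat below all of them, within the range of the somatic cells. In somatic cells the share was 1.53%, 1.38% and 1.71% with saline and 1.32%, 1.5% and 1.62% with dex. The 94 nuclear genes together took less, 0.832 ± 0.0345% of counts in saline germ, 0.813 ± 0.0424% in dex germ, 0.756 ± 0.0186% in saline somatic and 0.760 ± 0.00404% in dex somatic cells. The ratio of mitochondrial to nuclear OXPHOS counts therefore ran from 2.05 to 3.37 in saline germ, 1.72 to 3.45 in dex germ, 1.87 to 2.20 in saline somatic and 1.72 to 2.14 in dex somatic libraries.

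**Figure D1:**
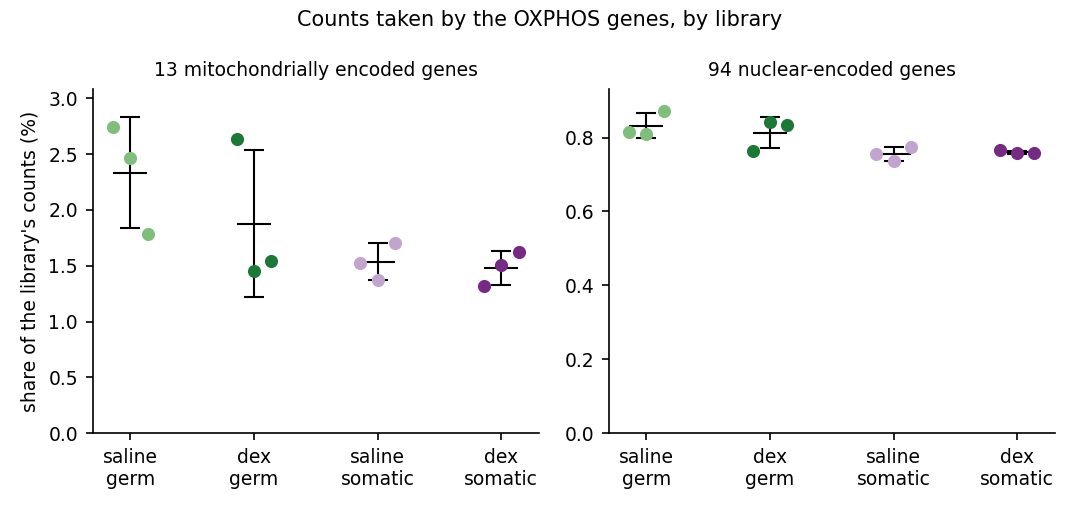
Share of each library's counts (%, axis from 0) taken by the 13 mitochondrially encoded genes (left) and the 94 nuclear-encoded genes (right), with points for libraries and bars for the mean and SD of 3. The mitochondrial share spreads widely in germ cells, where 1 dex library at 2.64% lies among the saline ones, while the nuclear share stays between 0.737% and 0.872% in all 12 libraries.

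Per gene length, the mitochondrial transcripts fell into a high and a low class. mt-Co1, the catalytic core of complex IV, had the highest level of the set. Its level was 11590, 10380 and 7629 CPM in saline germ libraries and 11510, 5953 and 6601 CPM in dex germ libraries, against 7463, 6746 and 8217 CPM in saline somatic and 6970, 7727 and 8182 CPM in dex somatic libraries. mt-Cytb, the cytochrome b of complex III, and the complex I genes mt-Nd1, mt-Nd2, mt-Nd4, mt-Nd5 and mt-Nd6 had means from 1061 FPKM (mt-Nd4) to 3606 FPKM (mt-Nd1) in saline germ cells, where mt-Co1 was at 6498 ± 1293 FPKM. The other 6 genes lay far lower. mt-Co2 and mt-Co3, the other complex IV core genes, were at 53.7 ± 11.6 and 32.8 ± 3.86 FPKM and mt-Atp6, a proton channel subunit of complex V, at 31.5 ± 7.83 FPKM. The short complex I genes mt-Nd4l and mt-Nd3 were at 16 ± 5.87 and 4.26 ± 1.72 FPKM. mt-Atp8, at 1.77 ± 0.498 FPKM, held 1 to 9 counts a library and was not tested. Of the 64-base words in each transcript, 99.5% of those of mt-Co2, 99.9% of mt-Co3, 99.5% of mt-Atp6, 98.7% of mt-Nd4l and 97.9% of mt-Nd3 also occur in other annotated genes. This share was 61.8% for mt-Nd4, 44.7% for mt-Co1 and 6.77% for mt-Nd2, and it was 0% for mt-Nd1, mt-Nd6, mt-Cytb and mt-Atp8. How reads that fit several places were counted is not given in the sources used here, so the part of shared sequence in these levels was not tested. mt-Nd5 and mt-Nd6 overlap at their ends on opposite strands, and the strand setting of the counting is not given either.

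**Figure D2:**
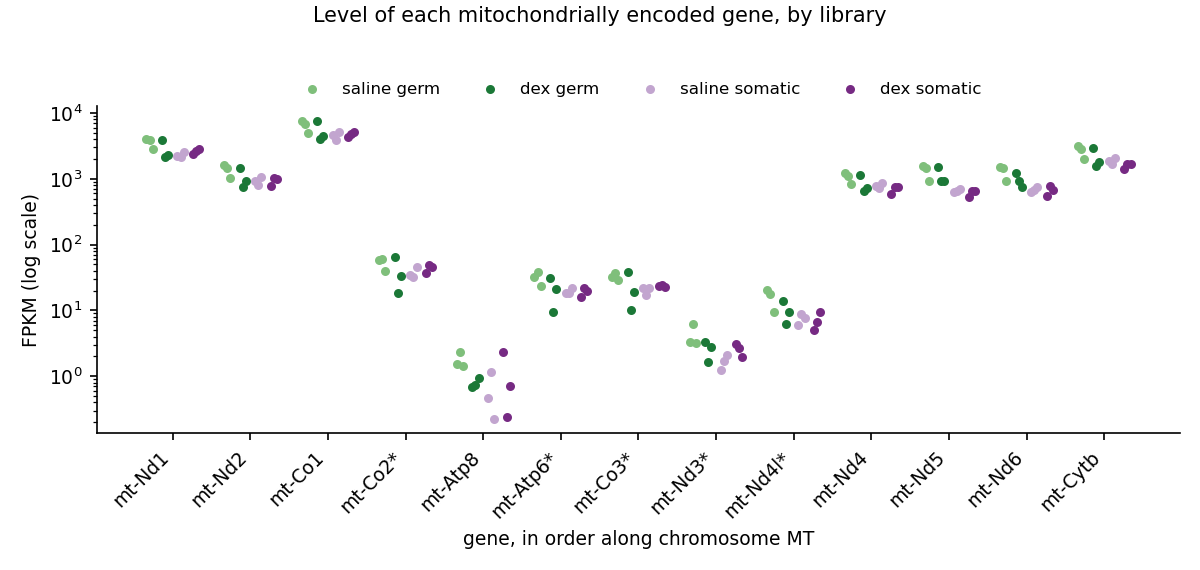
FPKM (log axis) of the 13 mitochondrially encoded genes in order along chromosome MT, with one point per library and colours for the 4 groups. An asterisk marks genes with over 90% of their 64-base words in other genes. These 5 genes and mt-Atp8 lie below the other 7 in every library.

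No OXPHOS gene passed the threshold for a dex effect in germ cells. Of 104 genes tested, edgeR called 0, while 1.25% of all genes tested were called in this comparison. At an unadjusted p under 0.05 there were 22, beside 14.7% of all genes, with 1 higher (7.06% of all genes) and 21 lower (7.69%). DESeq2 called 7, with 675 genes called in all, and limma on log2(FPKM + 0.1) called 0, with 6 called in all. The fitted log2 fold changes were mostly below 0, with 72 of 92 nuclear genes and 12 of 12 mitochondrial genes there, against 50.5% of all genes. The median log2 fold change was -0.11 for the nuclear genes, -0.44 for the mitochondrial genes and -0.003 for all genes tested.

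Among the mitochondrial genes the lowest adjusted p was 0.225, for mt-Nd6, a complex I subunit and the one mitochondrial gene of the set annotated on the minus strand, with a log2 fold change of -0.45 (SE 0.17). mt-Nd1, the complex I subunit next to the quinone site, was at 3839, 3661 and 2673 CPM with saline and at 3603, 2018 and 2151 CPM with dex. This gave a log2 fold change of -0.40 (SE 0.18, adjusted p = 0.31), and the groups overlapped because the first dex library was high. mt-Co1 gave -0.31 (SE 0.19, adjusted p = 0.50). For 0 of the 12 mitochondrial genes did the dex and saline values not overlap, beside 10.5% of all genes wholly higher and 9.55% wholly lower with dex. Without that first dex germ library, 7 mitochondrial genes were called lower (mt-Co1, mt-Co2, mt-Co3, mt-Cytb, mt-Nd1, mt-Nd2 and mt-Nd4), with 115 of 19183 genes called in all. The median over the mitochondrial genes was then -0.73. With all 3 libraries none was called by edgeR with the filter on low counts, and without that filter, where 767 genes were called in all, 10 mitochondrial genes were called lower.

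The nuclear subunits nearest the threshold in germ cells were small subunits of complexes III, IV and V. Uqcrh, the hinge protein of complex III, was at 64.7, 70.3 and 70.0 CPM with saline and 47.6, 54.1 and 56.4 CPM with dex, and all dex values lay below all saline values. Its log2 fold change was -0.38 (SE 0.09, adjusted p = 0.069). Cox7a2, the ubiquitous form of a small complex IV subunit, was at 62.4, 68.8 and 61.7 CPM against 38.8, 50.6 and 53.9 CPM, again without overlap, with -0.43 (SE 0.12, adjusted p = 0.086). Cox6b1, which lies at the contact within the complex IV dimer, gave -0.39 (adjusted p = 0.080), and Uqcr11, a small complex III subunit, gave -0.49 (adjusted p = 0.11). Atp5e, the epsilon subunit of the ATP synthase stalk, gave -0.40 (adjusted p = 0.071) and Ndufb3 of complex I gave -0.59 (adjusted p = 0.11), both named here after their values were seen. Cox7a2l went the other way, from 107, 104 and 125 CPM to 147, 138 and 144 CPM, with all dex values above all saline values and a log2 fold change of 0.35 (SE 0.08, adjusted p = 0.059). These 7 genes were the ones that DESeq2 called. Without dex germ replicate 2, edgeR called 4 genes of the set (Cox5b, Cox6b1, Ndufb3 and Uqcr11), with 265 genes called in all. Without saline germ replicate 3 it called 2 of the set (Cox7a2l and mt-Nd6), with 213 in all. In all, 3 genes of the set lay wholly higher and 14 wholly lower with dex, to be read beside the same 10.5% and 9.55%.

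By complex, the median log2 fold change in dex germ cells was -0.11 for complex I, -0.03 for complex II, -0.09 for complex III, -0.17 for complex IV and -0.12 for complex V. Complex I had 31 of 36 subunits below 0 and complex IV had 10 of 11. Transcript length moved with these values. Over genes whose mean log2 CPM reached 4, the median over all genes was -0.14 for 124 genes of at most 1000 bases, -0.06 for 675 genes of 1000 to 2000 bases and -0.002 for 7831 longer genes. The OXPHOS genes in the same classes had medians of -0.16 (16 genes), -0.13 (26 genes) and -0.04 (28 genes). Sertoli cell markers were also lower in dex germ libraries, at 338 to 424 CPM in sum against 404 to 460 CPM, with 1 of 10 called lower. Leydig cell markers were at 9.21 to 12.5 CPM in sum in dex germ against 14.6 to 17.2 CPM in saline germ libraries, and erythroid markers at 4.33 to 6.88 against 7.53 to 9.07 CPM. The sum of striated muscle and brown fat markers was higher, at 74.2 to 78.5 against 54.9 to 65.7 CPM. None of these last 3 sums overlapped between the groups. Single striated muscle and brown fat markers went both ways with dex. Of 8 tested, 5 had log2 fold changes above 0 and 3 below, with a median of 0.157, and 0 were called. In saline libraries 3 of 9 tested were called higher in germ than in somatic cells and 4 lower. The other somatic marker sums overlapped. With dex and saline, peritubular and stromal markers were at 110 to 114 and 95.7 to 128 CPM, and endothelial markers at 66.45 to 80.8 and 69.0 to 76.4 CPM. Macrophage and lymphocyte markers were at 4.66 to 6.10 CPM with dex and 5.69 to 7.10 CPM with saline. The part of length and of these markers in the result was not tested.

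In somatic cells 2 of the 102 OXPHOS genes tested were called higher with dex, beside 3.91% of all genes (2.74% called higher), and both were tissue isoforms of complex IV. Cox4i2 is the lung isoform of subunit 4, known for its induction at low oxygen, and Ndufa4l2 is a relative of the complex IV subunit Ndufa4 that is likewise known as a hypoxia target. Cox4i2 (chr2:152754173-152765037, plus strand, GRCm38) held 34, 35 and 21 counts in saline somatic libraries and 61, 82 and 97 in dex somatic libraries. In CPM this was 1.72, 1.54 and 1.02 against 3.45, 4.16 and 4.89, with no overlap, and the log2 fold change was 1.57 (SE 0.40, adjusted p = 0.037). Ndufa4l2 (chr10:127514967-127517154, plus strand) held 57, 37 and 65 counts with saline and 104, 143 and 154 with dex. This was 2.89, 1.62 and 3.16 CPM against 5.89, 7.25 and 7.76 CPM, again with no overlap, and the log2 fold change was 1.47 (SE 0.33, adjusted p = 0.018).

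Both isoforms stayed minor forms. Cox4i2 made up 0.967 ± 0.275% of the summed FPKM of Cox4i1 and Cox4i2 in saline somatic cells and 2.50 ± 0.508% in dex somatic cells. Ndufa4l2 made up 4.43 ± 1.54% of the summed FPKM of Ndufa4 and Ndufa4l2 with saline and 11.2 ± 1.49% with dex. The main forms were called in neither dex comparison. Cox4i1 was at 290 ± 13.9 CPM in saline somatic and 321 ± 11.8 CPM in dex somatic cells (adjusted p = 0.28), and Ndufa4 was at 70.2 ± 3.92 and 69.8 ± 4.33 CPM (adjusted p = 0.95). In germ cells Cox4i2 was at 0.434 ± 0.197 CPM with saline and 0.682 ± 0.0689 CPM with dex, and Ndufa4l2 at 1.47 ± 0.151 and 0.917 ± 0.454 CPM, and neither was called.

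The calls for both rested on few counts. Cox4i2 was no longer called without any 1 of the 6 somatic libraries, with adjusted p from 0.056 to 0.14. Ndufa4l2 was no longer called without dex somatic replicate 2 (adjusted p = 0.064), dex somatic replicate 3 (0.074) or saline somatic replicate 2 (0.0528). Ndufa4l2 overlaps Shmt2 on the opposite strand, which was at 89.5 ± 6.86 CPM in saline somatic and 88.5 ± 3.11 CPM in dex somatic cells (adjusted p = 0.97). Markers of other cells moved between the same libraries. Of 8 peritubular and stromal markers, 4 were called higher with dex and 0 lower, and their sum was 5157 to 6831 CPM with saline and 8557 to 9894 CPM with dex. Macrophage and lymphocyte markers had 2 of 7 tested called lower, with a sum of 42.5 to 68.6 CPM against 17.8 to 24.1 CPM, and erythroid markers had 2 of 4 called lower. The erythroid sums overlapped, at 256 to 394 CPM with saline and 85.3 to 299 CPM with dex. Leydig cell markers had 1 of 7 called lower and endothelial markers 1 of 6. Of 10 Sertoli cell markers 0 were called, and of 6 striated muscle and brown fat markers tested 1 was called higher. The part of these cells in the 2 changes was not tested.

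None of the 75 nuclear subunits tested or the 12 mitochondrial genes was called by edgeR in dex somatic cells. At an unadjusted p under 0.05 there were 11 nuclear subunits, beside 16.1% of all genes, 10 of them higher, beside 8.90%, and 1 mitochondrial gene. DESeq2 called 1 subunit, with 905 genes called in all, and limma on log2(FPKM + 0.1) called 0, with 251 in all. That subunit was Cox6a1, the ubiquitous subunit 6a of complex IV, at 215, 190 and 231 CPM with saline and 251, 285 and 263 CPM with dex, with a log2 fold change of 0.36 (SE 0.10) and an adjusted p of 0.052 from edgeR. The median log2 fold change was 0.07 for the nuclear genes and -0.01 for the mitochondrial genes, and by complex it was 0.10 for complex I, 0.02 for II, 0.03 for III, 0.09 for IV and 0.02 for V. The mitochondrial ribosomal RNAs, which are no members of the set and are named after their values were seen, did not follow the mitochondrial mRNAs. mt-Rnr1 rose from 918 ± 398 to 2287 ± 418 CPM (log2 fold change 1.36, adjusted p = 0.0018) and mt-Rnr2 from 531 ± 156 to 1332 ± 385 CPM (1.37, adjusted p = 0.00047).

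**Figure D3:**
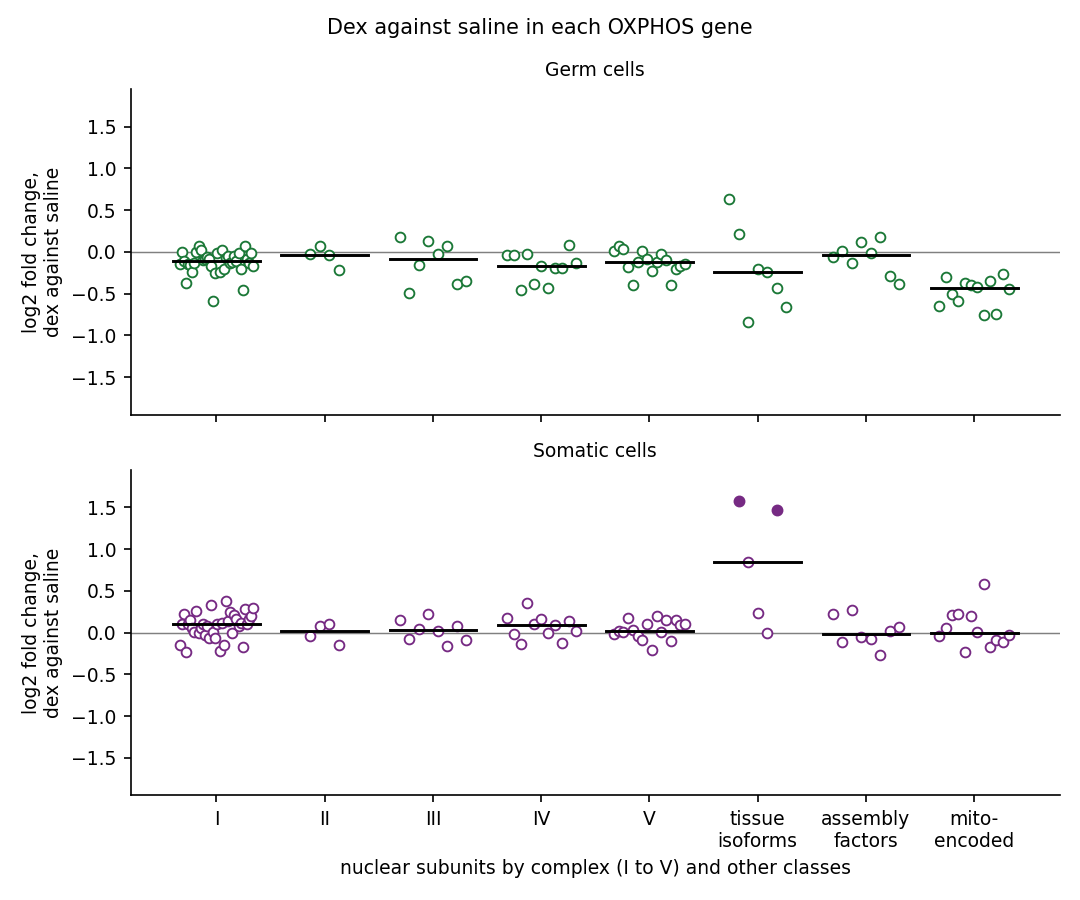
Log2 fold change of dex over saline from edgeR for each OXPHOS gene tested, by complex and class, in germ and in somatic cells, with filled points for called genes, open points for others and bars for medians. Atp5s and Cox7a2l are left out. Germ cells have no filled point and mitochondrial genes all below 0, and the 2 filled points in somatic cells are Cox4i2 and Ndufa4l2.

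The difference between the dex effects in germ and somatic cells was tested as an interaction, in which edgeR called 0 of 104 OXPHOS genes, beside 0.827% of all genes. At an unadjusted p under 0.05 there were 16, beside 13.3% of all genes, all with a lower dex effect in germ cells, beside 5.47% in that direction. DESeq2 called 3, with 620 genes called in all, and limma on log2(FPKM + 0.1) called 0, with 57 in all. Leaving out dex germ replicate 1, dex germ replicate 2 or dex somatic replicate 1 gave 1 call each (mt-Nd1, Cox6b2 and Cox7b2). Over all genes these fits called 87, 131 and 172. The median difference was -0.16 for the nuclear genes and -0.48 for the mitochondrial genes, beside 0.03 for all genes. Without dex germ replicate 1 the mitochondrial median was -0.80 and without dex germ replicate 2 it was -0.28. Length moved with this difference as well. Over genes whose mean log2 CPM reached 4, the median over all genes was -0.20 up to 1000 bases, -0.10 from 1000 to 2000 bases and 0.04 beyond. The OXPHOS genes in these classes had -0.26, -0.21 and -0.06, and the part of length was not tested. The lowest adjusted p belonged to Ndufa4l2, with a difference of -2.10 (SE 0.55, adjusted p = 0.084), and Cox4i2 gave -0.91 (SE 0.65, adjusted p = 0.60). The call for Ndufa4l2 depended on the tool and the filter, since DESeq2, edgeR without a filter on low counts, edgeR with at least 10 counts in every library and limma on log2(FPKM + 1) called its difference, while edgeR with other scalings or the replicate block and limma on log2(FPKM + 0.1) did not. Cox4i2 was called in none of these.

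Germ and somatic cells differed far more from each other than dex from saline. In saline libraries 81 of 104 OXPHOS genes were called, beside 76.5% of all genes, with 39 higher in germ cells (39.8% of all genes) and 42 lower (36.7%). In dex libraries 72 were called, beside 76.3% of all genes, with 23 higher (40.5%) and 49 lower (35.7%). The 2 comparisons share no library, and 59.6% of the OXPHOS genes were called the same way in both, beside 70.8% of all genes. These were 21 genes higher in germ cells, beside 37.1% of all genes, and 41 lower, beside 33.7%, and 0 were called in opposite directions. The split depends on the scaling, since the dex comparison gave 32 higher and 43 lower with DESeq2's size factors and 34 higher and 41 lower with library totals. In saline the majority turned, with 45 higher and 38 lower with DESeq2's size factors and 47 higher and 37 lower with library totals, and it was 25 higher and 42 lower without saline germ replicate 1 and 26 higher and 44 lower without saline somatic replicate 1. The median over all genes moved with it, from 0.12 with TMM to 0.22 and 0.30, and from 0.07 to 0.17 and 0.21 in saline. Relative to the median of all genes, the nuclear OXPHOS genes lay at -0.30 in saline and -0.46 in dex libraries with TMM, and the mitochondrial genes at 0.47 and -0.06. With at least 10 counts required in every library these were -0.13 and -0.24 for the nuclear and 0.62 and 0.17 for the mitochondrial genes. Transcript length moved with this comparison too. Over genes whose mean log2 CPM reached 4, the saline median over all genes was -0.53 up to 1000 bases, -0.32 from 1000 to 2000 bases and 0.005 beyond. The OXPHOS genes in these classes had 0.04, -0.38 and -0.20. In dex libraries all genes had -0.70, -0.43 and 0.06, and the OXPHOS genes -0.36, -0.53 and -0.33. The part of length was not tested.

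Summed over subunits, the complexes differed less between the groups than single subunits did. The summed FPKM of nuclear subunits was 4365 ± 222 in saline germ, 4180 ± 321 in dex germ, 4082 ± 136 in saline somatic and 4348 ± 92.2 in dex somatic cells. For complex I it was 1270 ± 77.7, 1191 ± 101, 1216 ± 31.9 and 1307 ± 6.39 in the same order. For complex III it was 402 ± 18.4, 377 ± 38.9, 432 ± 17.8 and 445 ± 22.1, and for complex V 1065 ± 28.6, 1043 ± 32.7, 1115 ± 23.8 and 1145 ± 32.6. Complex IV was at 1405 ± 89.2 and 1351 ± 146 FPKM in germ cells and at 1143 ± 70.8 and 1278 ± 38.2 FPKM in somatic cells. Complex II was at 223 ± 13.8 and 217 ± 14.3 FPKM in germ cells and at 177 ± 11.2 and 173 ± 5.14 FPKM in somatic cells. The log2 ratio of germ to somatic cells in saline was 0.33 for complex II, and 0.15 without Sdha, beside 0.30 for complex IV, and 0.33 without its most abundant member. Subunits of one complex, although most enter the enzyme in equal numbers, were measured at unequal levels per length. In saline germ cells complex I ran from 120 FPKM for Ndufs8, which carries iron-sulfur clusters, to 0.626 FPKM for Ndufb2. Complex IV ran from 322 FPKM for Cox4i1 to 18.9 FPKM for Cox7b, and complex III from 65.0 FPKM for Uqcrb to 25.8 FPKM for Uqcrc2. The exon length counted for Ndufb2 was 5628 bases, and the gene overlaps Braf on the opposite strand.

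Within complex I most subunits of the membrane arm were lower in germ cells, with exceptions in each part. Of 19 nuclear membrane-arm subunits, a grouping made after the values were seen, 13 were called lower in germ cells in both saline and dex libraries, beside 33.7% of all genes, and 2 higher, beside 37.1%. The part of transcript length in these counts was not tested. Ndufa3 was at 15.8 ± 2.09 CPM in saline germ and 34.5 ± 2.02 CPM in saline somatic cells, with a log2 fold change of -1.13 (SE 0.14, adjusted p = 1.1e-05). Ndufb9 went the other way, at 59.7 ± 3.39 against 31.6 ± 3.15 CPM (0.91 in saline and 0.50 in dex). In the arm that takes electrons from NADH, Ndufv1, the flavoprotein that binds NADH, was at 220, 237 and 265 CPM in saline germ and 107, 115 and 114 CPM in saline somatic libraries. All germ values lay above all somatic values, and the log2 fold change was 1.10 (SE 0.09, adjusted p = 1.8e-07), with 0.83 in dex libraries. Its partner Ndufv3, an accessory flavoprotein subunit, was lower in germ cells in both, with -0.98 in saline and -1.40 in dex. Ndufa9, at the quinone site, was higher, with 0.89 and 0.72.

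In complex II, Sdha, the flavoprotein that oxidises succinate, was at 329, 339 and 362 CPM in saline germ and 216, 263 and 216 CPM in saline somatic libraries, without overlap. The log2 fold change was 0.56 (SE 0.09, adjusted p = 0.00011), and 0.61 in dex libraries. The iron-sulfur subunit Sdhb was higher in both (0.25 and 0.28) and the membrane anchor Sdhc in saline (0.28, adjusted p = 0.019). The other anchor, Sdhd, was lower in germ cells in dex libraries (-0.28, adjusted p = 0.0496), with -0.24 in saline (adjusted p = 0.062). That call for Sdhd was kept in 0 of 9 other settings (-0.28 to -0.09) and in 2 of 6 fits that left out a library. The calls for Sdhb in saline, Sdhb in dex and Sdhc in saline were each kept in 3 of 6 such fits.

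Complexes III, IV and V each held subunits with large differences in both directions. In complex III, Uqcr10 and the core protein Uqcrc2 were lower in germ cells, with log2 fold changes of -0.84 and -0.79 in saline, and Uqcrb, near the quinone site, was higher with 0.54. In complex IV, Cox4i1 was at 472, 471 and 527 CPM in saline germ and 286, 278 and 305 CPM in saline somatic libraries (0.75, SE 0.08, adjusted p = 2.7e-06). Cox5a, which contacts subunit 4, was higher by 0.74, while Cox6b1 was lower with -0.51 and Cox7b with -0.99. The largest difference of complex V was in the c ring, the rotor that protons turn. Its subunit c is encoded by Atp5g1, Atp5g2 and Atp5g3, which differ in their import sequences and give the same mature protein. Atp5g2 was at 61.0, 59.2 and 60.8 CPM in saline germ and 157, 138 and 150 CPM in saline somatic libraries, far apart, with a log2 fold change of -1.30 (SE 0.08, adjusted p = 2.9e-08). Atp5g3 was also lower in germ cells (-0.84) and Atp5g1 higher (0.32, adjusted p = 0.035), a call kept in 1 of 6 fits that left out a library, with 0.17 without saline germ replicate 3. The summed FPKM of the 3 genes was 98.1 ± 6.40 in saline germ and 171 ± 2.50 in saline somatic cells. Of the 64-base words of Atp5g2, 36.9% occur in other genes. Atp5b, the catalytic beta subunit and the most abundant of complex V, was at 988 ± 24.1 CPM in germ and 929 ± 37.0 CPM in somatic cells and was not called (0.09, adjusted p = 0.30). Atp5h of the peripheral stalk was lower in germ cells (-0.89) and the small membrane subunit Atp5mpl higher (0.89).

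Of the 12 mitochondrial genes tested, 10 were called higher in germ than in somatic cells in saline libraries, beside 39.8% of all genes, and 0 lower, with a median log2 fold change of 0.54, and in dex libraries 2 were called higher, with a median of 0.06. The difference between these is the interaction given above, in which edgeR called no mitochondrial gene with the filter on low counts, and mt-Co1, mt-Nd1 and mt-Nd2 without it. Those 2 were mt-Nd5 (0.89 in saline and 0.78 in dex, adjusted p = 0.0013 in dex) and mt-Nd6 (0.82 and 0.43, adjusted p = 0.032 in dex). mt-Nd5 was at 2846, 2636 and 1653 CPM in saline germ and 2705, 1647 and 1630 CPM in dex germ libraries, all above the highest somatic value of 1328 CPM. Without dex germ replicate 1 the median in dex libraries was -0.24, and mt-Nd6 was at 0.25 and not called. Its call in dex was also lost without dex somatic replicate 1 (0.30), without dex somatic replicate 3 (0.44), with DESeq2 and with limma on both scales, while that of mt-Nd5 was kept in all of these. In saline the calls for mt-Co3, mt-Nd1, mt-Nd5 and mt-Nd6 were kept whichever library was left out. Those for mt-Co1, mt-Cytb, mt-Nd2, mt-Nd4, mt-Nd4l and mt-Atp6 were lost without saline germ replicate 1, saline germ replicate 2 or saline somatic replicate 1. Without the first of these, mt-Co1, mt-Cytb and mt-Nd4 fell to 0.23, 0.22 and 0.17. Of the 6 fits that left out a library, the call for mt-Atp6 was kept in 3. The calls for mt-Co1, mt-Cytb, mt-Nd2, mt-Nd4 and mt-Nd4l were kept in only 2 each.

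**Figure D4:**
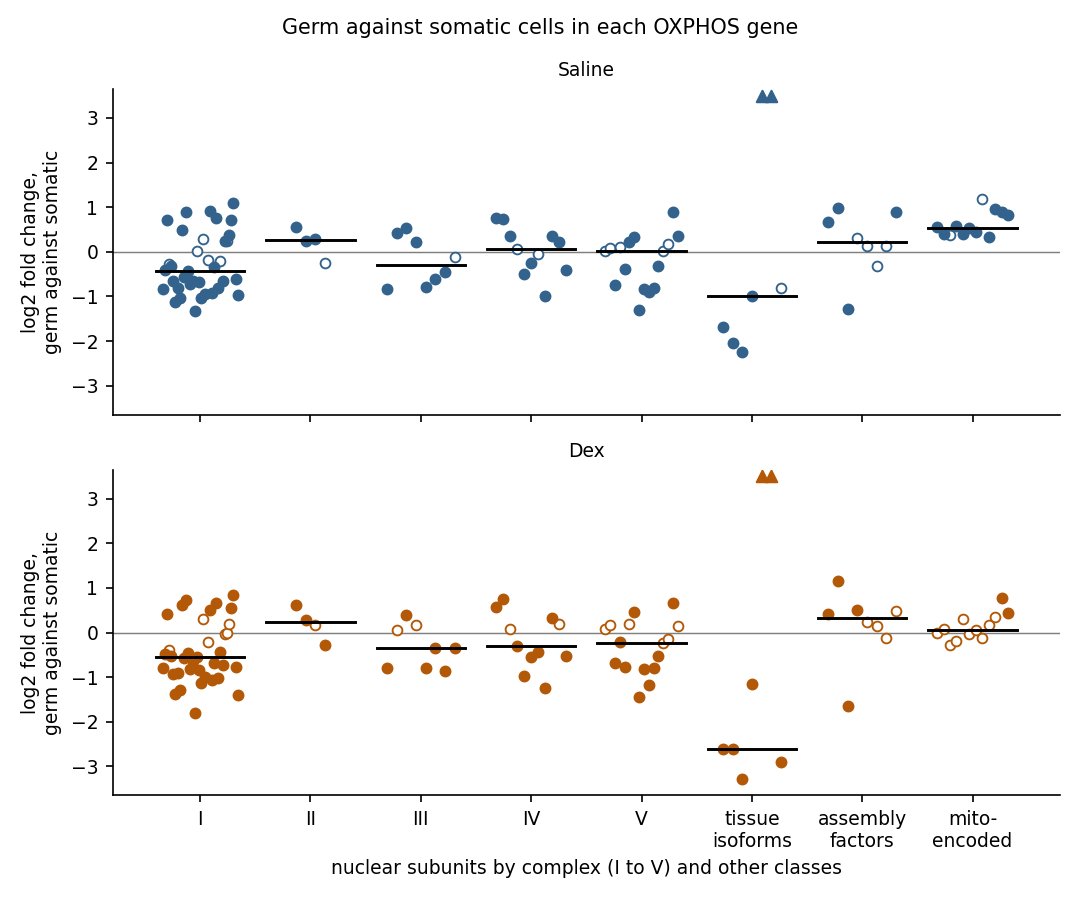
Log2 fold change of germ over somatic cells from edgeR for each OXPHOS gene tested, by complex and class, in saline and in dex libraries, with filled points for called genes, open points for others and bars for medians. Atp5s and Cox7a2l are left out, and triangles at the top stand for Cox7b2 and Cox8c, which lie beyond the axis. Mitochondrial genes have a median of 0.54 in saline and 0.06 in dex libraries.

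The sharpest differences between the cell populations were in the tissue isoforms of complex IV. Cox7b2 (chr5:71442824-71548205, minus strand) and Cox8c (chr12:102899316-102900526, plus strand) are known as testis forms. Cox7b2 held 335, 318 and 371 counts in saline germ and 294, 334 and 336 in dex germ libraries, against 0, 0 and 0 in saline somatic and 0, 5 and 7 in dex somatic libraries. The saline germ level was at least 115-fold higher than the somatic floor of 3 counts per library, and the log2 fold change in dex libraries was 6.01 (SE 0.47, adjusted p = 1.7e-07). Cox7b2 made up 61.9 ± 5.75% of the summed FPKM of Cox7b and Cox7b2 in saline germ cells and 60.9 ± 6.26% in dex germ cells. The testis form thus held the larger share there only per gene length. Without division by length it was the lower of the pair in saline germ cells, at a mean of 17.1 CPM by library totals. Cox7b itself was at 22.5 ± 3.70 CPM in saline germ and 44.8 ± 5.72 CPM in saline somatic cells. Cox8c held 196, 178 and 232 counts in saline germ and 125, 202 and 179 in dex germ libraries, and at most 1 count in any somatic library. This was at least 68.1-fold higher in saline and at least 48.3-fold higher in dex libraries. Cox8c was a minor form, with 6.58 ± 0.429% of the summed FPKM of Cox8a and Cox8c in saline germ cells.

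Other isoforms known from testis or muscle were not on the side of the germ cells. Cox6b2, known as the testis form of subunit 6b, was at 3.5, 4.01 and 4.48 CPM in saline germ and 19.3, 17.47 and 19.8 CPM in saline somatic libraries. It was lower in germ cells in both comparisons, with log2 fold changes of -2.24 (SE 0.19, adjusted p = 3.1e-07) in saline and -3.28 (SE 0.26, adjusted p = 1.7e-07) in dex. The heart and muscle forms Cox6a2 and Cox7a1 were also lower in germ cells, with -2.036 and -0.998 in saline, with group means of at most 4.04 CPM in saline libraries. Neither was called without saline germ replicate 2, nor was Cox4i2 in saline, and Cox6a2 was not called without saline somatic replicate 2 either. Cox4i2 was lower with -1.69 in saline and -2.61 in dex, and Ndufa4l2 with -2.90 in dex, while its -0.80 in saline had an adjusted p of 0.085. Cox8b, the remaining muscle form, had group means of at most 0.164 CPM, near the floor of 0.119 to 0.163 CPM that 3 counts stand for, and was not tested.

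**Figure D5:**
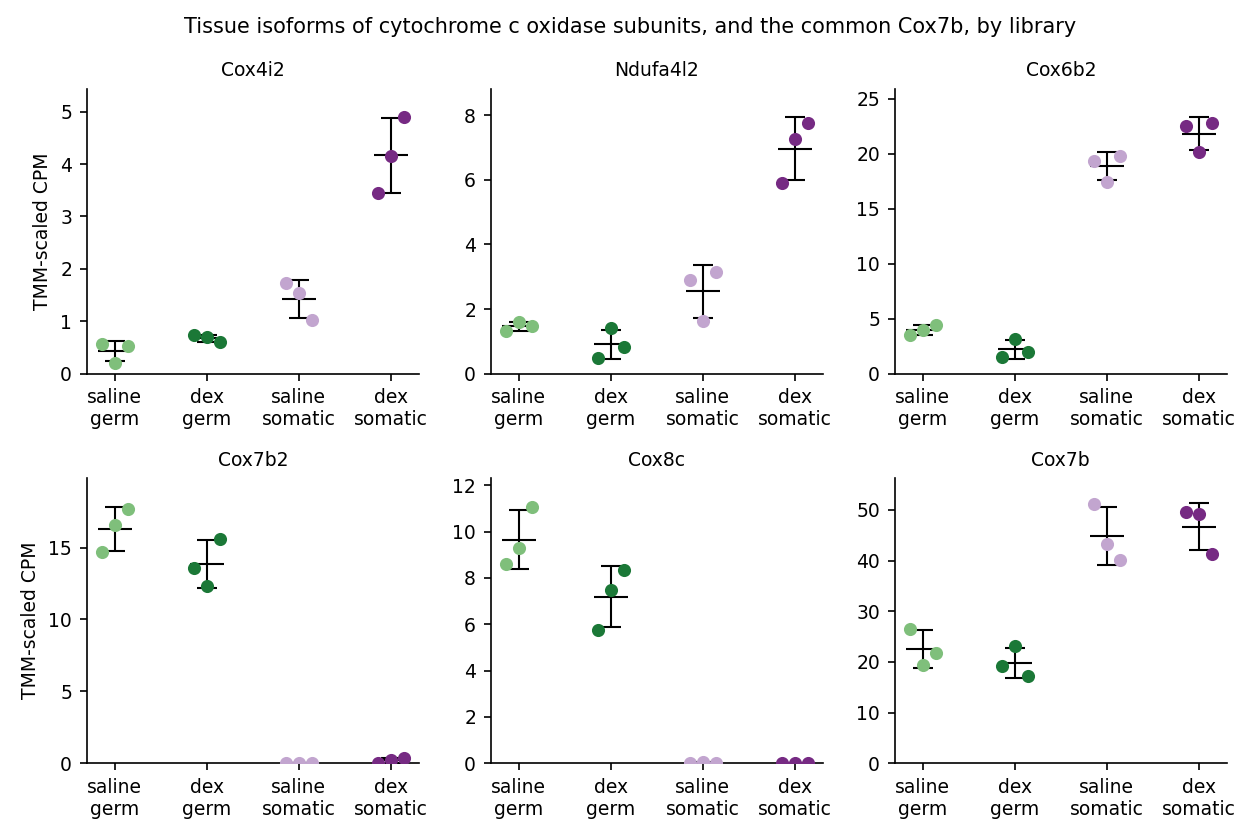
CPM (axes from 0) of 5 complex IV tissue isoforms and the common Cox7b in the 4 groups, with points for libraries and bars for the mean and SD of 3. Cox7b2 and Cox8c are seen in germ cells, Cox6b2 lies higher in somatic cells, and Cox4i2 and Ndufa4l2 are highest in dex somatic cells.

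The upstream sequences of the Cox7b pair are shown because these genes share a protein role but not the cells in which they were measured. They are 200 bases before the annotated start, from RefSeq on GRCm38.p6, at chr5:71548206-71548405 on the minus strand for Cox7b2 and chrX:106015500-106015699 on the plus strand for Cox7b, with CG pairs in capitals.
Cox7b2: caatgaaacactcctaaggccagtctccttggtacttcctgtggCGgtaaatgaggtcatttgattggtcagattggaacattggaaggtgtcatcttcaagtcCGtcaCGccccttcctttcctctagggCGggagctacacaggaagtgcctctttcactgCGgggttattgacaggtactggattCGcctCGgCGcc
Cox7b: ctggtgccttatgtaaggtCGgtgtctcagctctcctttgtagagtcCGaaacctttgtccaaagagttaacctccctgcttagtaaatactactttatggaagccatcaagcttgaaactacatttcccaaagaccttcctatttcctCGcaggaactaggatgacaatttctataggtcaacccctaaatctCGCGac
Cox7b2 holds 8 CG pairs in these bases and Cox7b holds 5. Over windows that also take in the first bases of the gene they hold 10 and 5, while the median was 20 CG pairs over the nuclear OXPHOS windows and 7 over all windows.

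Windows from 250 bases before to 50 after the start were matched for 76 of 93 nuclear symbols (81 windows). Binding motifs were searched on both strands as plain letters, and CGCATGCG, the core bound by NRF1, a known activator of respiratory genes, was in 13.6% of the OXPHOS windows and 1.87% of all 32851 windows. CCGGAAG, the ETS core that GABPA binds, was in 22.2% beside 8.86%, and AAGATGGC, the YY1 core, also in 13.6%, beside 2.75%. ACGTG, the core of hypoxia response elements, was in 24.7% beside 19.6%. ACANNNTGT, the inner letters of the glucocorticoid receptor element, was in 0 of the OXPHOS windows and in 6.85% of all windows. The OXPHOS windows also differed in base composition, with a median of 20 CG pairs beside 7 and of 58.3% G and C beside 52.7%. The part of base composition in these motif shares was not tested. No search here counted overlaps between motifs, and the NRF1 and glucocorticoid receptor letters were shortened after counts with longer forms had been seen. No window was matched for Cox4i2, Ndufa4l2 or Cox8c. Of the 11 windows with the NRF1 core, the 4 that carry it wholly within the 100 bases before the start are shown, with the core in capitals, to set promoters of genes with opposite patterns side by side. They lie at chr17:56717662-56717761 on the plus strand for Ndufa11, chr2:36049339-36049438 on the minus strand for Ndufa8, chr15:102671048-102671147 on the minus strand for Atp5g2 and chr5:108434400-108434499 on the minus strand for Atp5k.
Ndufa11: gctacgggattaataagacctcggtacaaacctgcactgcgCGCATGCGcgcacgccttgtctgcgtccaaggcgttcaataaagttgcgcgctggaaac
Ndufa8: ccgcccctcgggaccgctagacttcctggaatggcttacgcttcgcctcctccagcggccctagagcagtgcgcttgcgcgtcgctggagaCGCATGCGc
Atp5g2: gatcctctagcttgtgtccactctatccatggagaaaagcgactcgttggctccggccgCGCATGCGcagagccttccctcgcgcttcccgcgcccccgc
Atp5k: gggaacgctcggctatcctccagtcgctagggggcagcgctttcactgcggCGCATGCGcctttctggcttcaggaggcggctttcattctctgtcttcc
The core begins at position -59 from the start in Ndufa11, -9 in Ndufa8, -41 in Atp5g2 and -49 in Atp5k. Germ over somatic log2 fold changes in saline were 0.72 for Ndufa11 (adjusted p = 0.00014), -0.56 for Ndufa8 (adjusted p = 0.0021), -1.30 for Atp5g2 and 0.01 for Atp5k (adjusted p = 0.96). Genes with the same letters before their start were thus higher, lower and not called, and Ndufa11, Ndufa8 and Atp5k are named here for their sequence.

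Other mitochondrial gene lists gave context. In the dex comparisons, no gene was called in germ or in somatic cells among 40 other OXPHOS assembly factors, 19 electron carriers, 28 genes of mitochondrial transcription and DNA maintenance, the nuclear regulators (17 tested in germ and 16 in somatic cells) and the tricarboxylic acid cycle (19 and 18 tested). At an unadjusted p under 0.05 these lists held 5, 2, 3, 3 and 0 genes in germ and 3, 3, 1, 6 and 0 in somatic cells. Over all genes that share was 14.7% in germ and 16.1% in somatic cells. Of 77 mitochondrial ribosomal proteins, 1 was called lower in germ cells and 0 were called in somatic cells, and 1 of 21 glycolysis genes was called higher in germ and 3 in somatic cells. Of all genes tested, 1.25% were called in germ and 3.91% in somatic cells. Between germ and somatic cells in saline, 16 of 28 transcription and maintenance genes were called higher in germ cells and 4 lower, beside the 39.8% of all genes called higher and 36.7% called lower, against which the next counts are also to be read. The mitochondrial ribosomal proteins split 32 higher and 14 lower of 77, the assembly factors 15 and 12 of 40, the electron carriers 7 and 9 of 19, the cycle 8 and 7 of 19, glycolysis 5 and 11 of 21 and the regulators 7 and 8 of 18. Tfb2m, a factor of mitochondrial transcription, was higher by 1.21 and Gabpa, the ETS factor named above, by 0.75 on the log2 scale. Nrf1 was higher by 0.41 and Esrra, the estrogen-related receptor alpha, by 0.35. Tfam, which packages mitochondrial DNA, was at 53.5 ± 5.95 CPM in germ and 47.6 ± 6.54 CPM in somatic cells and was not called (adjusted p = 0.26), and the mitochondrial RNA polymerase Polrmt was not called either (adjusted p = 0.73). The coactivators of respiratory genes went opposite ways, with Ppargc1a lower in germ cells (-4.31, 0.231 ± 0.216 against 4.56 ± 0.181 CPM) and Ppargc1b higher (2.51). So did the cytochromes c, with the somatic form Cycs lower in germ cells (-1.21) and the testis form Cyct higher (4.71, 33.7 ± 3.42 against 1.29 ± 0.511 CPM). Atpif1, the inhibitor of ATP synthase, was lower in germ cells with -0.93.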

How the data were processed

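RNA was measured in 12 sorted-cell libraries. The authors aligned paired reads to mm10 with HISAT2 2.0.5 and counted them per gene with featureCounts 1.5.0-p3, and the deposited table holds these raw counts. The authors also deposited FPKM, computed from the counts, gene length and depth, used here for levels between genes. Strand setting, reads with several matches and annotation release are not given in the sources used here.

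The members and lists were chosen with earlier results of these data known. The counts were fitted with edgeR 4.0.16 (quasi-likelihood test, TMM scaling, filterByExpr with a minimum count of 10) in R 4.3.3, with only the groups of each comparison in a fit and all 4 groups in the interaction, and p-values were adjusted by Benjamini-Hochberg over all genes tested. The biological coefficient of variation was 14.4% to 17.0%. DESeq2 1.42.0, limma 3.58.1 on log2(FPKM + 0.1), other scalings and filters, and leaving out each library were alternatives. Scripts were tested on simulated data. Named genes were those called in a dex comparison, the 2 extremes per complex and direction between cell populations, the extremes per complex with dex, the most abundant per complex, all mitochondrial genes and all isoform families. Other named genes were chosen after their values were seen. A floor is 3 counts, 0.119 to 0.163 CPM, and it covers counting error only. Promoter windows came from RefSeq (GRCm38.p6). Lists of cell markers were read as sums. Same-numbered libraries deviated together little or not at all (correlations -0.088 to 0.044), and the numbers were not used as pairs. Between saline germ and saline somatic libraries the same-number correlations were 0.037 to 0.044, and the others -0.028 to -0.0088. Between dex germ and dex somatic libraries the same-number values were -0.016 to -0.0030. Whether same-numbered germ and somatic libraries came from the same pool is not given in the sources used here, so a weak pairing may be ignored.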

Additional observations from a re-analysis of the deposited data

How the results depend on the processing

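The count of OXPHOS genes called with dex in germ cells, 0 with the settings used, was 1 with library totals, 20 without a filter on low counts (where 767 genes were called in all), 7 with DESeq2 and 0 to 7 when single libraries were left out. In somatic cells it was 2, then 3 (with Cox6a1) without a filter, with at least 10 counts in every library and with DESeq2, 1 with the replicate block and 0 to 2 with single libraries left out. The settings that gave 3 called 1061, 702 and 905 genes in all. For the interaction it was 0, then 5 without a filter, 1 with at least 10 counts in every library, 3 with DESeq2, 1 with limma on log2(FPKM + 1) and 0 to 1 with libraries left out. In that order the settings from no filter to limma called 706, 262, 620 and 149 genes in all. The replicate block gave 0, 80, 70 and 0 calls in the dex germ, saline population, dex population and interaction comparisons, and no same-number correlation was over 0.1. The nuclear median between populations in saline, -0.23, was -0.13 with DESeq2 size factors, -0.0917 with library totals, -0.12 with DESeq2, -0.10 with limma at +0.1 and -0.10 at +1, and -0.30 to -0.15 with libraries left out. In dex, -0.35 became -0.25, -0.16, -0.24, -0.24 and -0.23 in that order, -0.27 without a filter, -0.28 with the strict filter, -0.45 over subunits alone and -0.40 to -0.21 with libraries left out. With libraries left out, the mitochondrial median in dex, 0.06, ran from -0.24 (without dex germ replicate 1) to 0.31 (without dex germ replicate 2), and the interaction medians from -0.23 to -0.0869 (nuclear, -0.16) and from -0.80 to -0.28 (mitochondrial, -0.48). As log2 ratios of summed levels, CPM in place of FPKM moved the nuclear subunits with dex in somatic cells from 0.0911 to 0.0373 and between populations in saline from 0.0967 to 0.000189, complex I between populations from 0.0627 to -0.0392, III from -0.10 to -0.17, V from -0.07 to -0.11 and V with dex in somatic cells from 0.0383 to -0.00359. Leaving out the most abundant subunit moved complex II between populations from 0.33 to 0.15, III to 0.0322, V to -0.14 and IV with dex in somatic cells from 0.161 to 0.0893. Some of these medians and sums thus changed sign. Among them were the mitochondrial median in dex, complexes I and III between populations and complex V with dex in somatic cells. Among single named genes, 10 of 30 values lost the call with dex in somatic cells, 71 of 716 between populations in saline and 39 of 567 in dex, and 0 turned. Except where a value shows it, the cause was not tested. The biological variation of 14.4% to 17.0% between libraries limits the changes that 3 pools per group can show, and low genes such as Cox4i2 rest on under 100 counts a library.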
